A study of Mus musculus with 16 samples.

Results

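The regions described here are all Miz1 ChIP-Seq peaks on mouse chromosome 15 (chr15), taken from the 2 peak lists of the study without any further selection. The list of the P6D4 line held 679 such peaks of 21629 in all, and the list of the 70Z/3 line held 778 of 10462. P6D4 comes from a thymic lymphoma (SCID.adh) and is labelled as stage DN3, an early thymocyte stage. 70Z/3 is a lymphoblast line labelled as pre-B, the stage at which a B cell precursor carries its first receptor chain. Neither line carries a stated treatment, and both are single established lines, so a difference between them cannot be told apart from the difference between 2 lineages. The study measured RNA in 3 libraries per line and ran the Miz1 ChIP once per line, with an antibody against Miz1 and 1 lysate shared with histone marks and an input, which were not analysed here. Beside the peaks, the RNA of the chr15 genes is given for P6D4 against 70Z/3.

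Miz1 is encoded by Zbtb17 and belongs to the zinc finger proteins that carry a BTB/POZ domain. It binds DNA near the starts of genes. It activates some of them on its own and represses others when it is joined by Myc, and the development of early B and T cell precursors needs it. Chromosome 15 carries Myc itself with the non-coding gene Pvt1, the IL-7 receptor gene Il7r, the Ly6 surface protein genes, the cohesin genes Rad21 and Nipbl, and the clusters of type II keratins and Hoxc genes, which are silent in most lymphocytes.

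Peaks are given on GRCm38 with the authors' MACS values: the pileup is the number of tags stacked at the summit, and the fold is that pileup over the local background. The 2 lists differ in depth. MACS kept 2.07 M ChIP tags of 60.8 M in P6D4 (3.40%) and 4.48 M of 30.9 M in 70Z/3 (14.5%), so a peak missing from 1 list was not shown to be absent in that line. With 1 ChIP library per line no peak value has a replicate check, and no test compares the lists. Intervals on shares are exact Clopper-Pearson 95% intervals and cover counting error only. RNA libraries held 48.3 to 54.8 M gene counts in P6D4 and 45.5 to 48.9 M in 70Z/3. The labels do not say that the 3 libraries came from separate cultures, so p-values measure the spread between libraries, which may be technical. All 8 pre-B markers were below 1 CPM (a gene's counts scaled by the size of its library) in P6D4, with summed levels of 0.759 to 1.32 CPM against 1867 to 1919 CPM in 70Z/3. The 8 DN3 markers summed to 2776 to 2814 CPM in P6D4 and 136 to 142 CPM in 70Z/3, where Lck (95.2 CPM) and Notch1 (41.1 CPM) made up most of it. Of markers of other cells, 6 myeloid genes summed to 30.9 to 37.7 CPM in P6D4 and 23.3 to 24.9 CPM in 70Z/3, 5 stromal genes to 3.78 to 4.49 and 0.497 to 0.936 CPM, and 4 erythroid genes to 0.577 to 0.636 and 0.866 to 0.953 CPM. Their part in the results was not tested.

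Promoter sequences were taken from chr15 genes with a peak summit at an annotated start. RefSeq promoter entries (GRCm38.p6) exist for 422 of the 776 protein-coding chr15 genes. Genes with a 70Z/3 summit between 250 bases before and 50 bases after the start were ranked by fold. The first 8 were kept, a limit set beforehand and not a count of all such genes. None of the genes at the tallest peaks is among them. The 250 bases before the start are shown for 5 of the 8, to let a reader see the kind of sequence under the weaker peaks. In the first 4 the capitals mark the 11 bases centred on the summit, and in Fbln1 they mark the only match to a motif searched. Each runs 5′ to 3′ on the gene's strand.
Cplane1, chr15:8168856-8169105, plus strand: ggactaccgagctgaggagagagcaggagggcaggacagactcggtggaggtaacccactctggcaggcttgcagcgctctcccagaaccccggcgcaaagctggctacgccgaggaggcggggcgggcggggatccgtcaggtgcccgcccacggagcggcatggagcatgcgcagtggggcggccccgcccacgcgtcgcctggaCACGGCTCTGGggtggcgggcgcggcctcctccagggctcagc
Ankrd33b, chr15:31367760-31368009, minus strand: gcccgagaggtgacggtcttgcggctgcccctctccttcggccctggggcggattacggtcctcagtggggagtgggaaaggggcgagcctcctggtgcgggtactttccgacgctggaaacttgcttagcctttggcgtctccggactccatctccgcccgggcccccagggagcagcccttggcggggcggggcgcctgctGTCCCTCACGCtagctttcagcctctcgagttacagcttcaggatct
Serhl, chr15:83099955-83100204, plus strand: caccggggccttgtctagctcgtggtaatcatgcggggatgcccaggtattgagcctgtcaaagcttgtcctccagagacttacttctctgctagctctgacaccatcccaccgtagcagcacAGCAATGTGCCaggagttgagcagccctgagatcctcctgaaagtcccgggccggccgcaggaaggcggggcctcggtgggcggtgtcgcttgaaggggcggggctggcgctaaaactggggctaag
Pnpla3, chr15:84167566-84167815, plus strand: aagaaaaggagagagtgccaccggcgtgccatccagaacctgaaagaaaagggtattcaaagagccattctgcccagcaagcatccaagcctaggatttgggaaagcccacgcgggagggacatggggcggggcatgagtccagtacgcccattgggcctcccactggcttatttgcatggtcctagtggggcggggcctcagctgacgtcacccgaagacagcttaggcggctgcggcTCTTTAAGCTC
Fbln1, chr15:85205758-85206007, plus strand: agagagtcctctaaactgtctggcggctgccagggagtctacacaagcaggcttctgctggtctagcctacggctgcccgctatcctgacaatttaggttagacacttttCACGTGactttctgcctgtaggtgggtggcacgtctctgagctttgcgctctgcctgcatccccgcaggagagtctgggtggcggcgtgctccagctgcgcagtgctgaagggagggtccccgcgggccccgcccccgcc
The summits lay 38, 42, 122 and 6 bp before the start in Cplane1, Ankrd33b, Serhl and Pnpla3 and 22 bp after it in Fbln1. Pileups at these 5 were 13, 11, 11, 8 and 8. The 8 stretches had a median GC content of 65.6%, against 53.6% over the 936 chr15 entries of the table.

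Both strands of the same 250 bases were searched for ATCGAT and ATCGGT, letters reported for Miz1 sites, and for CACGTG, the E-box bound by Myc with Max. ATCGAT occurred in 0.728% of all 32851 promoter entries and in none of the 8 stretches. ATCGGT occurred in 1.96% of all entries and in none of the 8. CACGTG occurred in 6.02% of all entries and in 1 of the 8, that of Fbln1, the gene of an extracellular matrix protein. A match is a description of letters only, and no match says only that these letters are not in that stretch.

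Chromosome 15 took 7.44% (6.94 to 7.96%) of the 70Z/3 list and 3.14% (2.91 to 3.38%) of the P6D4 list. Its span to the last annotated gene end is 3.82% of the summed spans of all chromosomes. The 70Z/3 list held 7.49 peaks per Mb of chr15, while the other 20 chromosomes held 1.07 to 4.95, with chr10 the next highest. The P6D4 list held 6.54 per Mb on chr15, within the range of 3.76 to 10.7 of the others and rank 18 of 21. There were 1.15 peaks in the 70Z/3 list for each in the P6D4 list on chr15, against 0.284 to 0.678 on the other chromosomes, again with chr10 the next. Chromosome 15 was the only one of the 21 with more peaks in the 70Z/3 list, although that list is the shorter.

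Peaks found in both lists (overlap of at least 1 bp) did not stand apart in number. In the 70Z/3 list they came to 1.58 per Mb on chr15, between the 0.913 and 2.59 of chromosomes 1 to 19 and X other than chr15. Peaks of the 70Z/3 list alone came to 5.91 per Mb, above the 1.48 to 3.38 of those chromosomes. Accordingly 164 of the 778 chr15 peaks of the 70Z/3 list (21.1%, 18.3 to 24.1%) overlapped a P6D4 peak, against 46.5% (45.5 to 47.5%) on the other chromosomes, the lowest share of the 21. From the other side, 172 of 679 chr15 peaks of the P6D4 list (25.3%, 22.1 to 28.8%) overlapped a 70Z/3 peak, against 22.4% (21.9 to 23.0%) elsewhere. Where peaks overlapped, summits lay a median of 136 bp apart, counted from the 70Z/3 list, and 67 of the 164 lay within 100 bp of each other. In each list 1 of the overlapping peaks lay at a gene end, 41 (P6D4) and 40 (70Z/3) inside genes and 130 and 123 between genes. Overlapping peaks had a median pileup of 13 in both lists and the others one of 10.

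The chr15 share of the 70Z/3 list was higher among its lower peaks. Chromosome 15 held 8.80% (7.98 to 9.68%) of the 70Z/3 peaks with a pileup of at most 10, 8.49% (7.35 to 9.74%) of those from 11 to 12, 6.40% (5.29 to 7.67%) of those from 13 to 15, 4.86% (3.80 to 6.11%) of those from 16 to 20 and 3.82% (2.59 to 5.41%) of those above 20. In the P6D4 list it held 3.06% (2.74 to 3.40%) of peaks with a pileup of at most 10 and 2.67% (1.39 to 4.61%) of those above 20. Over all chr15 peaks the median pileup was 11 in both lists, and the median fold was 6.74 in 70Z/3 and 6.58 in P6D4. The medians of the 2 lists were thus alike in tags, while the tallest peaks reached a pileup of 393 in 70Z/3 and 69 in P6D4. Pileups are not scaled for depth, and MACS kept 4.48 M ChIP tags in 70Z/3 against 2.07 M in P6D4. Equal pileups are therefore not equal heights per tag kept. Of the 70Z/3 peaks at or below a pileup of 10, 11.7% overlapped the P6D4 list, and of those from 16 to 20, 55.1% did.

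**Figure D1:**
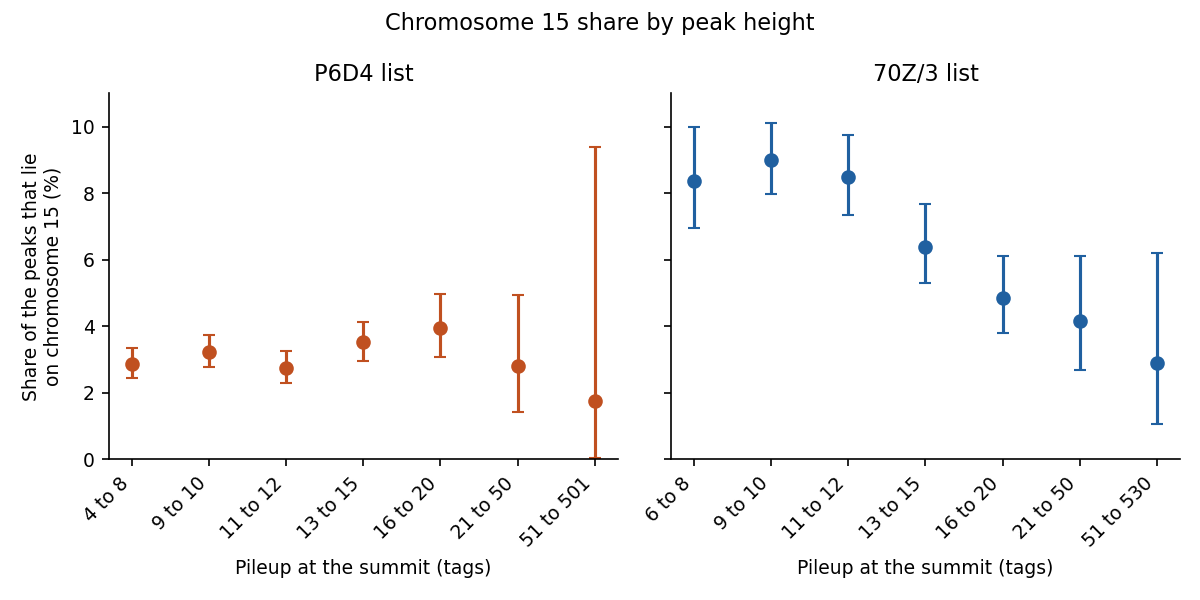
Share of each list's peaks that lie on chromosome 15 (y axis, percent) by pileup at the summit (x axis, tags), for the P6D4 list on the left and the 70Z/3 list on the right. Points are shares and bars exact 95% intervals; the 70Z/3 share falls from 8.99% at pileups of 9 to 10 to 2.90% above 50, while the P6D4 share lies between 1.75 and 3.94% in every class.

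Distance to gene ends separated the lists further. Here a gene end is either end of a RefSeq protein-coding gene, since the gene table gives no strand, and a peak is at it when its summit lies within 1 kb. On chr15, 2.76% of bases lie that close. In the 70Z/3 list 88 of 778 chr15 peaks (11.3%, 9.17 to 13.7%) were at a gene end, against 5.28% (4.84 to 5.74%) on the other chromosomes, the highest share of the 21 with chr10 next at 9.74%. Of the 88, 98.9% were in the 70Z/3 list alone, where the other chromosomes without Y ranged from 17.6 to 100%. In the P6D4 list 3 of 679 (0.442%, 0.0912 to 1.29%) were, against 1.13% (0.992 to 1.28%) elsewhere. The typical P6D4 peak lay far from gene ends, inside or outside genes, with a median of 81.2 kb to the nearest one. Beyond 100 kb lay 44.8% (41.0 to 48.6%) of P6D4 peaks, close to the 43.0% (42.3 to 43.6%) of that list on the other chromosomes. The 70Z/3 median was 29.5 kb, and 25.4% (22.4 to 28.7%) lay beyond 100 kb, against 38.6% (37.7 to 39.6%) of that list elsewhere. Inside genes but off their ends lay 37.8% (34.4 to 41.3%) of the 70Z/3 peaks and 28.7% (25.3 to 32.3%) of the P6D4 peaks, against 26.2% and 24.5% on the other chromosomes. Of the bases of chr15, 38.5% lie in protein-coding genes, ends included. The P6D4 share, which leaves out only 3 gene-end peaks, is below that. The 70Z/3 share leaves out 88 gene-end peaks, some of them inside genes, so it cannot be set against the bases directly.

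Spacing differed as well. On chr15 72.8% of P6D4 summits had another within 10 kb and the median gap was 8.89 kb, inside the range of chromosomes 1 to 19 and X (4.27 to 13.8 kb). In the 70Z/3 list 30.7% had such a neighbour and the median gap was 69.1 kb, where the same chromosomes ranged from 54.0 to 203 kb. The P6D4 peaks of chr15 therefore came in tight groups, as in the rest of that list, and the 70Z/3 peaks mostly stood singly.

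Along the chromosome, the 70Z/3 peaks were most numerous in the window with the most genes, but their number did not rise with gene number in every window. Chr15 was cut into 10 Mb windows, 11 in all. The 70 to 80 Mb window, with 193 protein-coding genes the richest, held 175 of the 778 peaks of the 70Z/3 list (22.5%), 36 of its 88 gene-end peaks, and 69 P6D4 peaks. The next windows by gene number, 80 to 90 Mb with 148 protein-coding genes and 90 to 100 Mb with 105, held 73 and 60 peaks of the 70Z/3 list, fewer than the 95 of the 30 to 40 Mb window with its 57 genes, and the 50 to 60 Mb window held 73 with 47 genes. In the 60 to 70 Mb window around Myc, with 25 protein-coding genes, the order was the other way, with 49 peaks in the 70Z/3 list and 89 in the P6D4 list. In the gene-poor 20 to 30 Mb window, with 16 protein-coding genes, there were 50 and 85. Single stretches of 1 Mb varied as well, and that from 101 to 102 Mb held 5 peaks of the 70Z/3 list with 33 protein-coding genes. Of 104 such stretches, the 49 with 5 or more protein-coding genes held 62.5% of the 70Z/3 peaks and 38.7% of the P6D4 peaks of chr15. On the other chromosomes without Y such stretches made up 54.2% of all (47.1% on chr15), and held 55.5% of the 70Z/3 peaks and 49.4% of the P6D4 peaks.

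**Figure D2:**
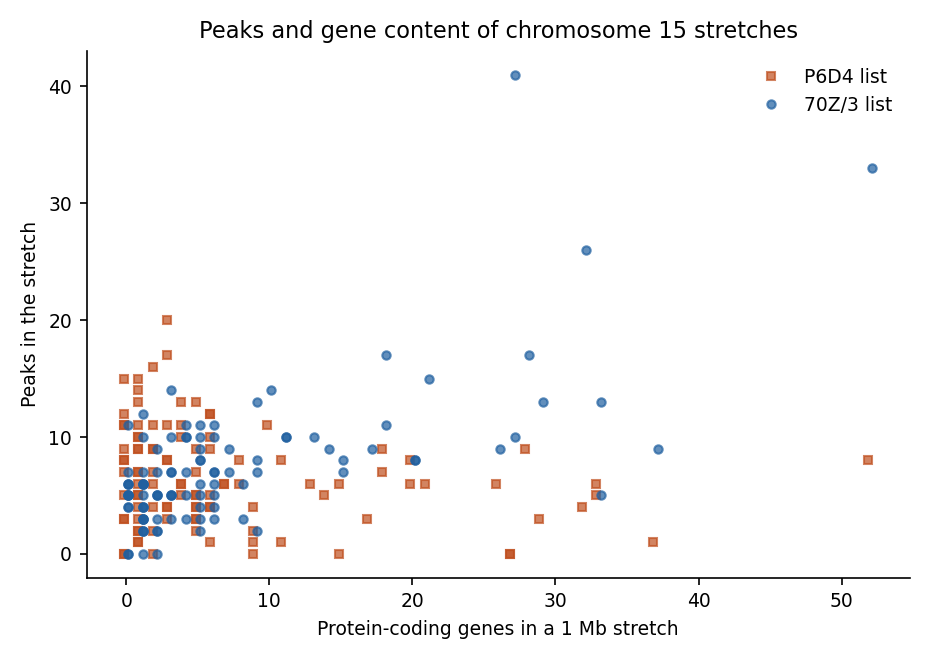
Peaks (y axis, count) against protein-coding genes (x axis, count) in each 1 Mb stretch of chromosome 15, with circles for the 70Z/3 list and squares for the P6D4 list. The stretches with the most 70Z/3 peaks, 41 and 33, hold 27 and 52 genes, while the stretch with the most P6D4 peaks, 20, holds 3.

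The densest stretch, from 78 to 79 Mb, was chosen after its values were seen. It held 41 peaks of the 70Z/3 list and 0 of the P6D4 list. Their pileups ran from 7 to 54 with a median of 10, and 29 lay inside genes, 7 at gene ends and 5 between genes. Triobp, whose product binds actin, carried 6 of them inside it, and Elfn2 and Gga1, a sorting adaptor of the Golgi, carried 5 each. Gga1 was at 152, 157 and 162 CPM in the P6D4 libraries and 56.9, 54.7 and 57.5 CPM in 70Z/3. Elfn2 was at 200, 187 and 189 CPM in P6D4 and 3.72, 4.02 and 4.31 CPM in 70Z/3. Il2rb, the IL-2 receptor beta chain, with 1 peak inside, was at 133, 159 and 171 CPM against 0.277, 0.332 and 0.200. For each of these genes the P6D4 libraries stood above all 70Z/3 libraries, although the peaks were in the 70Z/3 list. The same order of libraries held for 381 of the 490 tested chr15 genes. Of 16 tested genes in the stretch 14 were called higher in P6D4 and 2 lower, the latter being Ncf4 and C1qtnf6. By the same calls 77.6% of all tested chr15 genes were higher and 16.7% lower, and 43.3% and 43.2% of tested genes genome-wide.

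**Figure D3:**
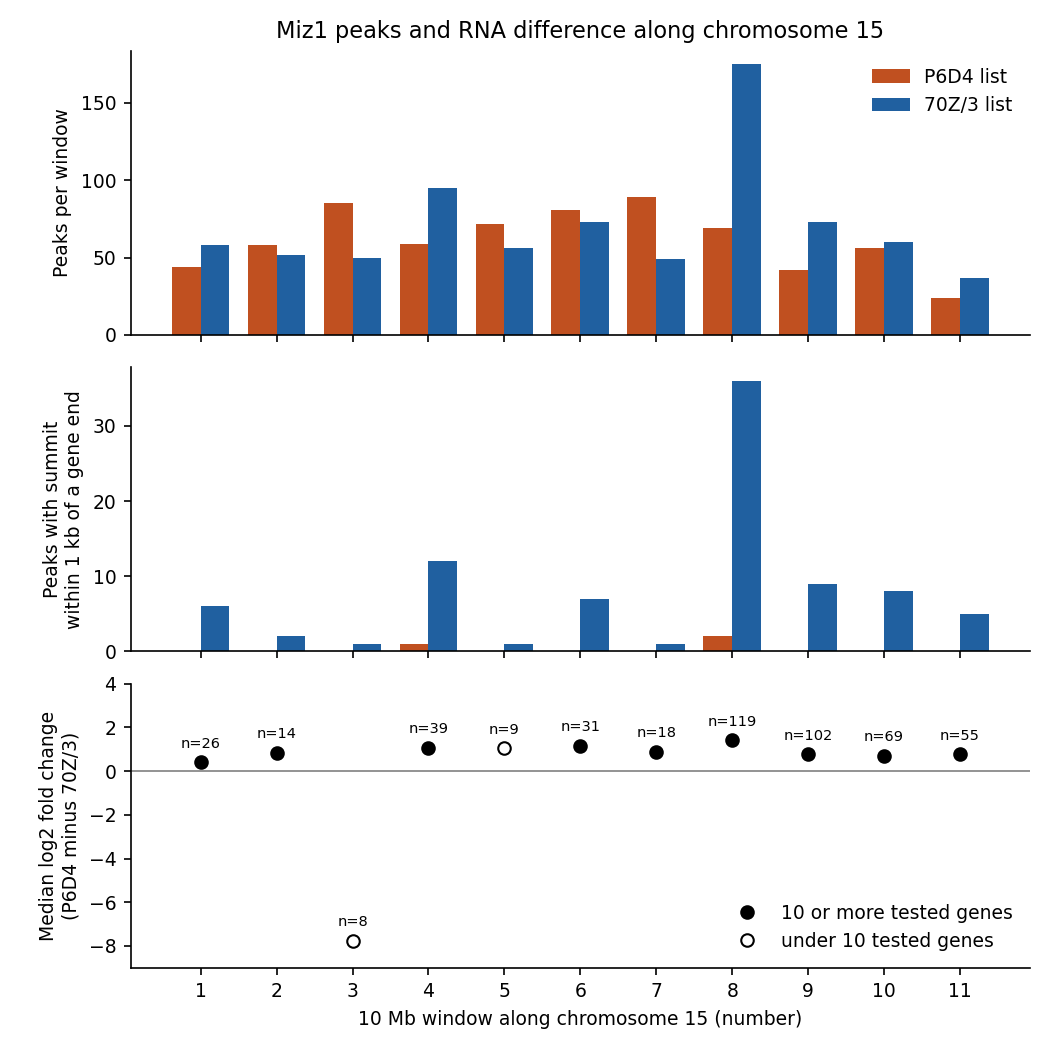
Along chromosome 15 in 10 Mb windows (x axis, numbered from the start), the top panel shows peaks per window, the middle panel peaks within 1 kb of a gene end, and the bottom panel the median log2 fold change of tested genes with their number. Window 8 (70 to 80 Mb) holds 175 peaks of the 70Z/3 list and the RNA median is above 0 in every window but number 3, which has 8 tested genes.

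The tallest chr15 peak of the 70Z/3 list, chr15:39943784-39944605, had a pileup of 393 and a fold of 239. Its summit lay 112 bp outside an end of Lrp12, which encodes a low-density lipoprotein receptor-related membrane protein. No P6D4 peak overlapped it. Lrp12 RNA was at 65.2, 66.0 and 64.1 CPM in P6D4 and at 0.0213, 0 and 0.111 CPM in 70Z/3, where 6 counts were found in all. The line with the peak was thus the one with next to no Lrp12 RNA (log2 fold change 10.49, SE 0.16, edgeR adjusted p = 5.09e-16).

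The only gene-end peak found in both lists lay where Vps28 and Tonsl adjoin, with its summit inside Vps28, whose product is part of the ESCRT-I complex that sorts proteins into endosomes. Tonsl acts in repair at stalled replication forks. In the 70Z/3 list it spanned chr15:76625641-76626520 with a pileup of 367 and a fold of 209. In the P6D4 list it spanned chr15:76625806-76626341 with a pileup of 69 and a fold of 52.2, the tallest of the P6D4 peaks on the chromosome. The summits were 34 bp apart. Vps28 was not matched to a counted gene here, and its value is not given. Tonsl was at 139, 138 and 138 CPM in P6D4 and 42.2, 45.9 and 46.1 CPM in 70Z/3, with all P6D4 libraries above (log2 fold change 1.63, SE 0.04, edgeR adjusted p = 1.09e-13). Its counts may include reads of the neighbour that starts beside it and are uncertain for that reason.

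Of the 8 gene-end peaks of the 70Z/3 list with the highest fold, the other 6 were absent from the P6D4 list. Zhx1, a zinc finger and homeobox repressor, had a peak 129 bp from an end (chr15:58076043-58077081, pileup 101, fold 61.9). Its RNA was at 208, 208 and 206 CPM in P6D4 and 91.6, 93.9 and 92.4 CPM in 70Z/3. Sh3bp1, a GTPase-activating protein for Rac, had one 112 bp from an end (chr15:78899440-78900327, pileup 38, fold 23.6), with RNA at 158, 162 and 165 CPM against 38.0, 38.5 and 40.8. Jrk, a DNA-binding protein, had one 133 bp from an end (chr15:74708998-74709394, pileup 21, fold 13.3), with 17.8, 17.8 and 16.5 CPM against 2.19, 2.63 and 2.11. Each of these 3 genes was higher in every P6D4 library than in any 70Z/3 library, as were 381 of the 490 tested chr15 genes. Zc3h3, a zinc finger protein of mRNA processing, had a peak of pileup 20 and fold 12.7, and Atxn10 one of pileup 19 and fold 12.1. Their mean RNA was 11.3 ± 0.687 against 5.89 ± 0.452 CPM and 283 ± 3.69 against 132 ± 1.31 CPM (P6D4 against 70Z/3, SD, n = 3). The eighth, of pileup 19, lay 7 bp from 9130401M01Rik, which was not matched to a counted gene.

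The P6D4 list had 2 more gene-end peaks, and both were low. At Zfp706, a small zinc finger protein, the peak lay 805 bp from an end (chr15:36995691-36996358, pileup 11, fold 7.20), and at Ly6e, a surface protein of the Ly6 family, 818 bp from an end (chr15:74960636-74960926, pileup 8, fold 6.92). Ly6e also had a 70Z/3 peak of pileup 9 near its other end. Ly6e RNA was at 1694, 1767 and 1680 CPM in P6D4 and 262, 284 and 285 CPM in 70Z/3. Zfp706 RNA was at 286, 281 and 280 CPM against 228, 231 and 232. Both genes were higher in all P6D4 libraries, Ly6e by a log2 fold change of 2.63 and Zfp706 by 0.29. The same order of libraries held for 381 of the 490 tested chr15 genes.

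**Figure D4:**
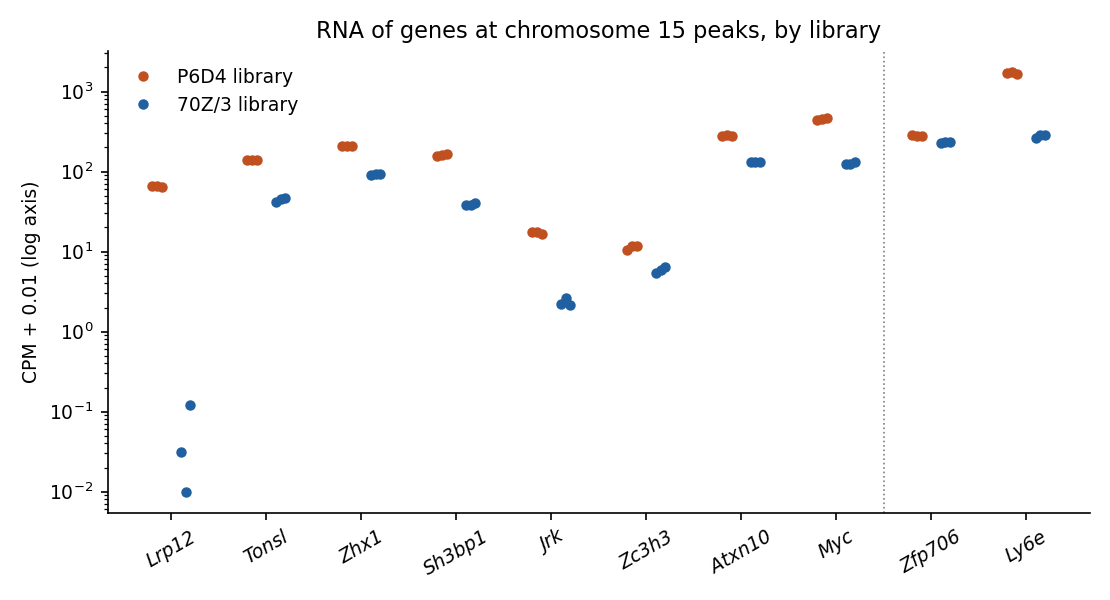
RNA level in each library (y axis, CPM + 0.01 on a log scale) of genes at chromosome 15 peaks. Left of the dotted line are genes with a peak of the 70Z/3 list (Tonsl shares its peak with the P6D4 list). Right of it are genes with a gene-end peak of the P6D4 list. In all 10 genes the 3 P6D4 libraries lie above the 3 of 70Z/3. In Lrp12 they are at 65.2, 66.0 and 64.1 against at most 0.111 CPM. In Zfp706 they are at 286, 281 and 280 against 228, 231 and 232 CPM. The P6D4 libraries lie above in 381 of 490 tested chr15 genes and in 6020 of all 13750. Genes with a 70Z/3 end peak that go the other way, such as Zhx2, are not shown.

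Away from gene ends, the highest folds in the 70Z/3 list belonged to 5 peaks of that list alone. The first, chr15:38384473-38385074 with a pileup of 55 and a fold of 34.0, lay 84.1 kb from an end of Klf10, and 1 of fold 21.5 lay 209 kb from Tafa5. Nearer to genes were 1 of fold 22.4 at 2.45 kb from Olfr288, 1 of pileup 54 and fold 21.4 at 2.70 kb from Mfng, an enzyme that adds sugars to Notch receptors, and 1 of pileup 27 inside Sgsm3. In the P6D4 list 4 of the 5 highest were also in the 70Z/3 list. The first, chr15:81266009-81266582, had a pileup of 48 and a fold of 34.8 in P6D4 but a pileup of 12 and a fold of 7.88 in 70Z/3, and lay 27.4 kb from an end of Mchr1. The one of P6D4 alone, chr15:19718116-19718680 with a pileup of 31, lay 702 kb from Cdh10. Outside this ranking, chosen after its value was seen, a 70Z/3 peak 21.4 kb from an end of Ly6c2 had a pileup of 193 but a fold of only 8.87.

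Genes of chr15 were more abundant in P6D4 RNA as a group. Among 490 tested chr15 genes 380 were called higher in P6D4 (77.6%) and 82 lower (16.7%) by edgeR's quasi-likelihood test at an adjusted p under 0.05. Over all 13750 tested genes the same calls covered 43.3% higher and 43.2% lower. Against a 2-fold threshold (edgeR's glmTreat) 212 chr15 genes were higher and 50 lower, where 16.6% and 18.6% of all genes were. The median log2 fold change of the tested chr15 genes was 0.90, a 1.87-fold higher level in P6D4, with quartiles of 0.27 and 1.60, and it was 0.01 over all tested genes. Setting the 16 genes with no count in 1 line at the bound that a floor of 3 counts per library allows left the median at 0.90. A median depends little on the size of such extreme values, so this could hardly have moved it. In bulk libraries a change of RNA in each cell and a change in the share of cells that make it cannot be told apart.

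The shift was spread over many genes. A log2 fold change between 0.5 and 1.5 was found in 198 of the 490 genes (40.4%), against 14.8% of tested genes on other chromosomes. That band lies around the chr15 median of 0.90, so a higher share in it follows in part from the shifted median. The other chromosomes had medians from -0.50 (chr6) to 0.46 (chr10), and shares called higher from 24.5 to 63.4%, so chr15 was highest of 20 on both and chr10 next. Among genes with at least 10 CPM in both lines, 265 of 308 on chr15 (86.0%) were called higher, with a median of 0.86, against 41.8% and -0.01 on the other chromosomes. Chromosome 15 genes took 7.15, 7.22 and 7.27% of the gene counts in the P6D4 libraries and 3.99, 3.98 and 3.99% in 70Z/3. Without the 10 most counted chr15 genes, among them Rpl8 and Pabpc1, the shares were 5.48, 5.48 and 5.47% and 3.14, 3.14 and 3.15%. The P6D4 libraries lay above all 70Z/3 libraries in both sets.

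Along the chromosome the RNA median was above 0 in 10 of 11 windows, from 0.41 in the first (26 genes) to 1.41 in the 70 to 80 Mb window (119 genes), where 106 genes were called higher and 10 lower. The exception was the 20 to 30 Mb window, with 8 tested genes, 5 of them called lower, and a median of -7.75. Of its genes, chosen after their values were seen, Retreg1, an endoplasmic reticulum autophagy receptor, was at 40.6, 38.0 and 38.8 CPM in 70Z/3 with 3 counts in all P6D4 libraries, and Myo10, an unconventional myosin, was at 7.36, 6.36 and 7.15 CPM against 0.0541, 0.0379 and 0.0205. Zfp622 in the same window was higher in P6D4 (75.7, 75.3 and 78.0 CPM against 40.6, 39.8 and 38.9). Of the 48 stretches of 1 Mb with 3 or more tested genes, 43 had a median above 0.

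Genes with and without peaks shared this shift. Of the 92 protein-coding chr15 genes with a 70Z/3 peak at an end, 61 had enough counts to be tested, and 57 of these were called higher in P6D4 and 3 lower. Their median log2 fold change was 1.17. The 295 tested genes with no peak of either list inside or within 1 kb had 238 called higher and 45 lower, with a median of 0.86. The 95 genes with a peak inside but none at an end had 69 higher and 24 lower, with a median of 1.10. On the other chromosomes 405 tested genes with a 70Z/3 peak at an end had a median of 0.11, with 48.9% called higher, and those without one a median of -0.02, with 42.8%. The difference between chr15 genes with and without such a peak was not tested. The tested genes with a 70Z/3 end peak that were not called higher, also picked by their values, were Zhx2 (59.0, 56.8 and 60.0 CPM in 70Z/3 against 0.793, 0.702 and 0.657), Zfp385a (67.4, 69.3 and 70.8 CPM against 9.01, 9.73 and 10.9), Ttc33 and Slc52a2, which was not called (log2 fold change 0.02). Ttc33 was at 34.7, 33.9 and 34.0 CPM in P6D4 against 37.3, 37.0 and 37.1 (log2 change -0.12, edgeR adjusted p = 0.0156), and its call was lost without P6D4 replicate 2 (adjusted p = 0.0672) and when scaled by library totals (adjusted p = 0.0678).

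**Figure D5:**
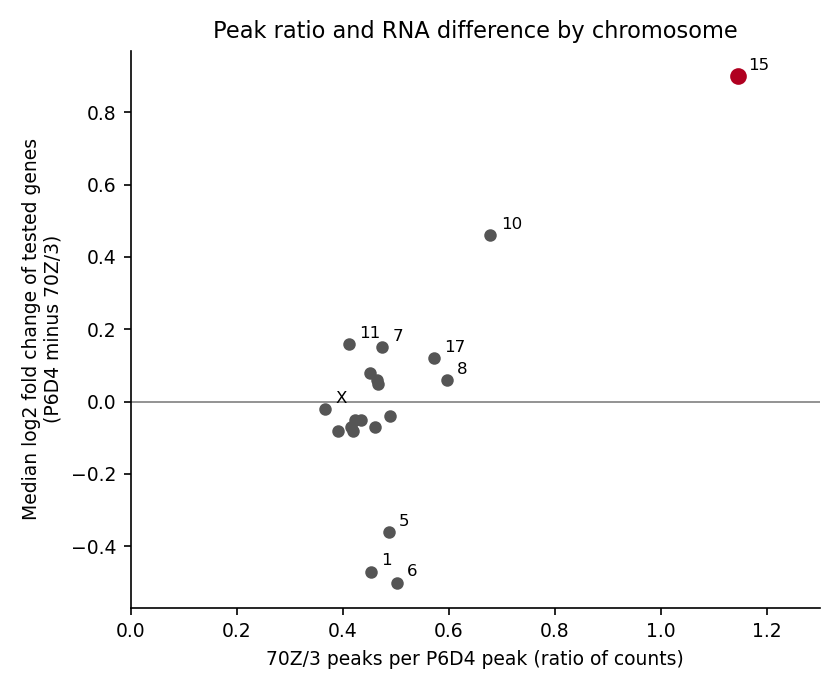
Each point is a chromosome (1 to 19 and X), with the number of 70Z/3 peaks per P6D4 peak on the x axis and the median log2 fold change of its tested genes on the y axis; some of the crowded points carry no label. Chromosome 15 lies at 1.15 and 0.90 and chr10 at 0.678 and 0.46, apart from the rest.

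Over the 20 chromosomes the log2 ratio of peak numbers and the RNA median had a Pearson r of 0.70 and a Spearman rho of 0.34. Without chr15 they were 0.33 and 0.23 (n = 19), and without chr10 as well 0.00 and 0.10 (n = 18), so the relation rests on these chromosomes. It is a description without a test: all points come from the same 2 ChIP libraries and 6 RNA libraries. In the 211 windows of 10 Mb off chr15 with 20 or more tested genes r was 0.17. A higher RNA level in P6D4 and more peaks in the list of the other line, 70Z/3, thus fell on the same chromosome.

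The largest differences were at genes close to silent in 1 line. Higher in P6D4 were Prickle1, a planar polarity protein (74.0, 78.8 and 76.7 CPM against 0.0213, 0 and 0.0666), Cbx6, a Polycomb subunit (204, 191 and 191 against 0.0638, 0.145 and 0.0666), and Deptor, an inhibitor of mTOR (55.1, 57.9 and 53.0 against 0.0213, 0.0414 and 0.0222). Nptxr, a neuronal pentraxin receptor, and Wnt7b, a Wnt ligand, each had 1 count in 70Z/3, for ratios of 2803 (exact 95% counting interval 503 to 110742) and 2464 (442 to 97359). Prickle1 and Deptor had 70Z/3 peaks of pileup 8 and 11 at an end. The other 3 had no peak at an end in either list, while Nptxr had 1 and Wnt7b 2 peaks of the 70Z/3 list inside. Lower in P6D4 was Lrrk2, a large kinase, with 10 counts in all P6D4 libraries against 224, 181 and 196 CPM. Mapk11, a p38 kinase, Sema5a, a semaphorin, and Phf21b had no count in P6D4 and were at least 340-fold, 203-fold and 186-fold lower against a floor of 3 counts per library. Ttll1, which adds glutamate chains to tubulin, had 1 count there, for a ratio of 2852 (511 to 112698). No peak lay at an end of any of these lower genes. Sema5a held 3 P6D4 peaks and 1 70Z/3 peak inside it, and Ttll1 held 1 from each line. Lrrk2, Mapk11 and Phf21b held none. That the libraries of 1 line lay entirely above those of the other was a condition for choosing these 10 genes.

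The counts of the gene lists below stand beside those of all tested chr15 genes, of which 77.6% were called higher and 16.7% lower (86.0% and 10.4% at 10 CPM or more in both lines), and of all tested genes, with 43.3% and 43.2%. Of 23 tested translation genes 22 (95.7%) were called higher in P6D4, none lower, and Rpl30 was not called, although it was when libraries were scaled by their totals (edgeR adjusted p = 0.0498). None was lower at an unadjusted p under 0.05 or in DESeq2 either. Polr2k, an RNA polymerase subunit, and Nol12, a nucleolar protein, had the highest log2 fold changes, 2.06 and 1.74, and the lowest called were Hnrnpa1 and Pabpc1, an RNA packaging and a poly(A)-binding protein, with 0.32 and 0.34. Rpl8, a large ribosomal subunit protein, was at 2938, 2968 and 2913 CPM in P6D4 against 1316, 1300 and 1284, and Bop1, which acts in ribosome assembly and has a 70Z/3 peak of pileup 12 at an end, at 233, 204 and 206 against 106, 131 and 125. Atf4, the transcription factor of the amino acid response, had 733 ± 45.6 against 498 ± 6.66 CPM (SD, n = 3). The median of the list was 0.93, close to the 0.90 of all tested chr15 genes.

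All 25 tested genes of cell cycle, cohesin and repair were called higher in P6D4 (edgeR; DESeq2 also called 25 higher and 0 lower, and 0 were lower at an unadjusted p under 0.05). Their median log2 fold change was 0.98, near the 0.90 of the chromosome, where 77.6% of tested genes were called higher (43.3% genome-wide). Cbx6 led, followed by Xrcc6, the Ku70 subunit of the end-joining complex, at 642, 634 and 595 CPM in P6D4 and 76.9, 83.4 and 80.9 CPM in 70Z/3. Skp2, the substrate receptor of a ubiquitin ligase, had a log2 fold change of 1.32, the chromatin acetyltransferase gene Ep300 0.42, and Atad2 and Ywhaz the lowest values, 0.33 and 0.13. For cohesin, Rad21 (746, 779 and 786 CPM against 546, 534 and 525) and its loader Nipbl (410, 408 and 417 against 329, 303 and 294) differed by 0.53 and 0.42. None of Rad21, Skp2, Ep300 and Xrcc6 had a peak of either list inside it, and Nipbl had 1 of pileup 10 in the 70Z/3 list.

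Myc was at 443, 459 and 468 CPM in P6D4 and 126, 126 and 132 CPM in 70Z/3 (log2 fold change 1.84, SE 0.04, edgeR adjusted p = 8.05e-15), with no overlap. A peak of the 70Z/3 list alone lay inside Myc (chr15:61987554-61987930, pileup 20, fold 12.7), 2438 bp from its nearer end. The nearest P6D4 peak was 147 kb away, had a pileup of 16 and was shared with 70Z/3. Pvt1, the non-coding neighbour of Myc, was at 32.4, 33.7 and 34.5 CPM against 12.1, 11.9 and 13.3, with no peak of either list inside it and the nearest 70Z/3 peak 33.8 kb away.

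Of 18 tested autophagy and vesicle transport genes 17 (94.4%, where the chromosome had 77.6% and all genes 43.3%) were called higher in P6D4, none lower, and Arfgap3 was not called, except without P6D4 replicate 1 (log2 fold change 0.21, edgeR adjusted p = 0.00710; DESeq2 also called 17 and 0, and none was lower at an unadjusted p under 0.05), with a median of 0.80. Deptor and Snx31, a sorting nexin, were the highest. Snx31 was low in both lines, with 0.306, 0.266 and 0.534 CPM in P6D4 and 4 counts in 70Z/3. Vps13b and Atp6v1c1, a subunit of the proton pump, were the lowest called, with log2 fold changes of 0.27 and 0.20. Rictor, a core subunit of mTOR complex 2, had 199, 198 and 207 CPM in P6D4 against 134, 133 and 130, and Prkaa1, a catalytic subunit of the energy sensor AMPK, 145, 145 and 146 against 68.1, 66.9 and 66.2. The nearest 70Z/3 peak to Prkaa1 lay 3.99 kb away with a pileup of 15. Of the 22 genes of this list on chr15, 6 had a 70Z/3 peak at an end, among them Vps28, Vps13b, Tomm22 and Azin1. Of all 776 protein-coding chr15 genes, 92 had one.

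Lymphocyte receptor and signalling genes were called in both directions. Of 29 tested, 18 (62.1%) were called higher in P6D4, 10 (34.5%) lower and Prlr was not called, where all tested chr15 genes had 77.6% higher and 16.7% lower and all genes 43.3% and 43.2%. The list had a median of 1.35 and quartiles of -1.08 and 7.59. Fyb, an adaptor of T cell receptor signalling, was at 290, 318 and 342 CPM against 0.0851, 0.290 and 0.311. Ly6d had no count in 70Z/3 and was at least 36.4-fold higher in P6D4. Lowest were Mapk11, described above, and Itga5, an integrin alpha chain, at 55.9, 53.5 and 54.5 CPM in 70Z/3 with 4 counts in P6D4. Il7r, the receptor chain for IL-7 that both lineages use, was at 186, 154 and 160 CPM in 70Z/3 and 72.8, 82.9 and 81.6 CPM in P6D4 (log2 fold change -1.08, SE 0.07, edgeR adjusted p = 2.77e-09). The nearest 70Z/3 peak to Il7r lay 9.63 kb away with a pileup of 10, and the nearest P6D4 peak 583 kb away.

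Genes of other cell types were mostly too low to test. Of 56 keratin, Hoxc, cartilage, stromal and gland genes on chr15, 6 were tested, 4 higher and 2 lower in P6D4. Grhl2, an epithelial transcription factor, was at 61.6, 68.9 and 72.4 CPM in P6D4 and at most 0.0638 CPM in 70Z/3. Col2a1, a cartilage collagen, stayed below 1 CPM in both lines (0.506 ± 0.217 and 0.0425 ± 0.0208 CPM, SD, n = 3). Trps1, a GATA-type repressor of cartilage, was at 36.0 ± 0.511 against 46.7 ± 2.15 CPM, and Wnt10b had no count in P6D4 and 0.234 to 0.333 CPM in 70Z/3. Of the 56 genes 14 had a peak inside, and Krt18, too low to test, had a 70Z/3 peak at an end. A peak inside was found in 13 of 37 lymphocyte, 4 of 23 translation, 7 of 26 cell cycle and 7 of 22 autophagy list genes. Of all 452 tested protein-coding chr15 genes, 121 had peaks of the 70Z/3 list only inside, 3 of the P6D4 list only and 23 of both. The list counts include genes that were not tested, and no difference from this background was tested. Of the 92 genes with a 70Z/3 end peak 31 were not tested: Vps28, 9130401M01Rik and Ccdc166 were not matched to a counted gene, and the others, such as Sox10, Gdnf and Mafa, were too low.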

How the data were processed

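RNA-Seq counts of 6 libraries and 2 Miz1 peak lists were used. The count values are reads per gene that the authors deposited, aligned with TopHat2 2.0.10 and Bowtie2 2.10 and counted with HTSeq, per the submitters' processing notes, which name mm10 and GRCm38. The pileup, a signal in tags at the summit, and the fold enrichment come from MACS 2 against an input control with at most 1 tag per position and a q threshold of 0.01, per the file headers. Peaks were called once per line. Such a threshold and the removal of repeated tags can tie the number of low peaks to the depth kept.

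Genes were tested with edgeR 4.0.16 (TMM, filterByExpr, quasi-likelihood test, Benjamini-Hochberg over all 13750 tested genes, threshold 0.05), limma 3.58.1 and R 4.3.3, without a replicate block. The standard error is the absolute log2 fold change over the root of F. HTSeq's unassigned rows were left out of library sizes (reads in no gene came to 14.5 to 16.0%). Symbols placed 998 counted genes on chr15 through the RefSeq table of GRCm38.p6. Distances, overlaps and edgeR calls were tested on simulated data. Alternatives were DESeq2 1.42.0, other scalings, filters, distances and peak thresholds.

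Named peaks were, in each list, the 8 gene-end peaks and the 5 others with the highest fold, and the 5 gene-end peaks highest in 1 list only. Named genes were those at these peaks, the 5 largest rises and falls where the higher line reached 10 CPM, the 2 highest called higher and 2 lowest called lower of 5 gene lists (lymphocyte receptors and signalling, translation, cell cycle with cohesin and repair, autophagy with vesicle transport, and genes of other cell types), and 13 genes of known function. The rises and falls were taken only from called genes whose libraries did not overlap between the lines. Other genes were named after their values were seen. Members and lists were chosen with earlier results of these data known. Promoters were planned for shared gene-end peaks. The only such peak, at Vps28 and Tonsl, has none in the table used. Instead, of those holding a 70Z/3 summit, the 8 with the highest fold were taken. The 38 overlapping entries of the promoter table were checked for strand.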

Additional observations from a re-analysis of the deposited data

How the results depend on the processing

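The 41 genes named by rule and 23 others were refitted with DESeq2, other scalings and filters, the replicate block and each library left out, and 810 of 819 values kept their direction and side of the threshold. The rest were of genes named later: Ttc33 (call lost at -0.08 with library totals and -0.11 without P6D4 replicate 2), Rpl30 (called at 0.08 with library totals), Arfgap3 (called at 0.21 without P6D4 replicate 1), and the uncalled Slc52a2 (-0.00 with RLE factors and DESeq2, -0.05 to 0.05 with a library left out, -0.01 in 1 case) and Prlr (-0.30 to 0.01 with a library left out), whose signs turned. Called higher and lower chr15 genes numbered 380 and 82, and 212 and 50 against a 2-fold threshold; with at least 10 CPM on average, which leaves fewer genes to test, 46 were lower. Leaving out each library in turn gave 376 to 382 higher, 79 to 82 lower and medians of 0.89 to 0.91. The median log2 fold change of 0.90 was 0.88 with RLE size factors and with DESeq2, 0.92 with TMM factors from other chromosomes, 0.93 with library totals and with no filter on low counts, and 0.79 without the 70 to 80 Mb window, a setting chosen after seeing the data. A replicate block gave 376 higher, 80 lower and a median of 0.90, and changed no call of a named gene. Libraries with the same number shared only that number: their deviations correlated at -0.055, -0.046 and 0.008, and 0 of 6 libraries correlated best with its own number.

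Within 5 kb the share of peaks at a gene end became 2.50% in P6D4 (5.43% on the other chromosomes) and 24.3% in 70Z/3 (11.9%). In 70Z/3 it was 7.97% within 500 bp (3.85% on the other chromosomes) and 6.04% at annotated starts only. Requiring overlap of 50% of both peaks gave 13.7% (P6D4) and 12% (70Z/3), against 11.8% and 25.5% on the other chromosomes. With a pileup above 10, also chosen after seeing the data, overlap was 36.5% (P6D4) and 30.3% (70Z/3), against 34.4% and 57.5% on the other chromosomes. The chr15 share of the 70Z/3 list was then 6.46%. The cause of these shifts was not tested. Depth limits what the lists can show of low peaks: 3.40% of the P6D4 ChIP tags were kept.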
